A study of Caenorhabditis elegans with 2 samples.

Results

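The genes described here encode the factors that start and extend protein synthesis in Caenorhabditis elegans. They were chosen by name as the protein-coding genes of the Ensembl WBcel235 annotation whose symbol begins with eif-, eef- or ife-, or is drr-2. The rule found 37 of 19973 protein-coding genes on the 6 nuclear chromosomes. Chromatin immunoprecipitation and sequencing (ChIP-seq) had been carried out on whole L1 larvae, the first larval stage, to find where an eGFP-tagged F16B12.6 protein sits on the genome. All animals were of strain OP114, a mixed-sex population that carries unc-119(tm4063) on chromosome III and the transgene wgIs114, so the tagged protein came from an added copy and every cell type was pooled. There were 2 biological replicates from separate biosamples and no second condition, so the comparisons are between genes and between replicates.

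Translation begins when the small ribosomal subunit, helped by eIF1, eIF1A and the scaffold complex eIF3, receives initiator tRNA from eIF2 and is brought to the capped end of an mRNA through eIF4E. The exchange factor eIF2B recharges eIF2 with GTP after each round, and eIF2 with eIF2B is the step that stress kinases slow down. Once the large subunit has joined, eEF1A delivers aminoacyl-tRNA, the eEF1B complex recharges eEF1A, and eEF2 moves the ribosome along the mRNA. Growing larvae depend on all of these steps.

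Most of the translation factor genes had a thresholded F16B12.6 site at their promoter. A gene was counted as bound when the summit of a peak in the authors' thresholded list lay between 1000 bp upstream and 200 bp downstream of its annotated 5' end. By this count 26 of the 37 genes were bound (70.3%, 95% Wilson interval 54.2 to 82.5%, which covers counting error only), beside 11.8% of all protein-coding genes. The 26 genes had 26 distinct peaks. All 6 elongation factor genes were bound, as were 20 of the 31 initiation factor genes. The 11 unbound genes included eIF2 subunit and cap-binding protein genes, of which only 1 of 3 and 2 of 5 were bound. They also included eIF3 subunit genes, of which 8 of 11 were bound (72.7%), near the share over all 37 genes.

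**Figure D1:**
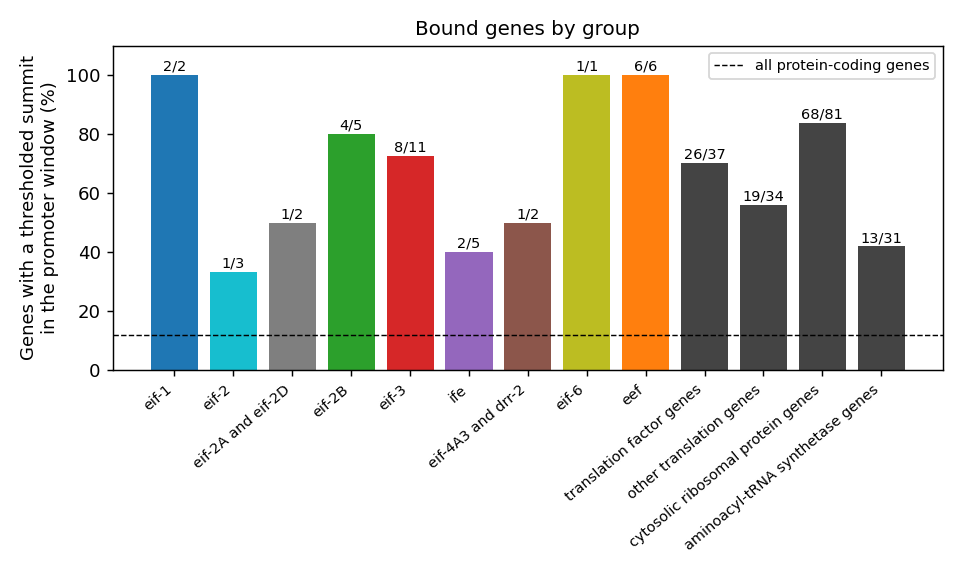
Share of genes in each group (vertical axis, percent) with a thresholded summit in the promoter window, with counts above the bars. Colours mark groups of translation factor genes, dark bars are whole lists, and the dashed line is the 11.8% of all protein-coding genes; the groups eif-1, eif-6 and eef are at 100%, and eif-2 is lowest with 1 of 3.

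The DNA under the summits is shown for 8 bound genes, from the strongest peak (drr-2) to the weakest (ife-3). They were taken from windows drawn up for 13 of the 26 bound genes and are not a representative sample of them. Each run is the 100 bp centred on the pooled summit (ce11, read 5' to 3' on the strand of the gene), and none of it is annotated as an exon. Capitals mark CAAACAC or its reverse complement GTGTTTG, and ACGCAG or its reverse complement CTGCGT, which are taken up again after the values.
drr-2 (chrIII:13643662-13643761, minus strand): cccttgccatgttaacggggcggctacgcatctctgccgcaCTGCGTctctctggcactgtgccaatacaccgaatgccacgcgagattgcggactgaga
ife-2 (chrX:382825-382924, minus strand): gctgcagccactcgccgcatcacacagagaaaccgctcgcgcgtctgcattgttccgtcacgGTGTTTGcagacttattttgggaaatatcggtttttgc
eif-3.B (chrII:14795032-14795131, plus strand): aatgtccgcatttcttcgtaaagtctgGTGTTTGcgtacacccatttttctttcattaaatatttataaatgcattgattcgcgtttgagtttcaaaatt
eif-3.G (chrII:8442386-8442485, plus strand): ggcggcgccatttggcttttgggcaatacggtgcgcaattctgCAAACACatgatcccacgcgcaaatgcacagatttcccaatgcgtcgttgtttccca
eif-1.A (chrIV:4810511-4810610, plus strand): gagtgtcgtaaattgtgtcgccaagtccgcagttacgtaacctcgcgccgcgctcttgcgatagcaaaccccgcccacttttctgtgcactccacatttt
eef-1A.2 (chrX:7823204-7823303, plus strand): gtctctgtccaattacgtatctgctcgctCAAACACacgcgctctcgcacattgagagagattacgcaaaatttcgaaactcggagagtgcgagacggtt
eif-2Balpha (chrIII:9542974-9543073, plus strand): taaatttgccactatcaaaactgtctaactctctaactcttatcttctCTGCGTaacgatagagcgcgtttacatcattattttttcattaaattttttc
ife-3 (chrV:8181-8280, minus strand): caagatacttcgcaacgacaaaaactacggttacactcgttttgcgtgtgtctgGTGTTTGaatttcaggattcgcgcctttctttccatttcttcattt
The window at drr-2 holds CTGCGT close to its middle and 60% G and C, while that at eif-2Balpha holds the same letters in 31% G and C. The windows at ife-2, eif-3.B, eif-3.G, eef-1A.2 and ife-3 each hold CAAACAC on either strand, and the window at eif-1.A holds neither sequence. The windows at eif-2A, eef-1B.2, eif-3.D, eif-2Bgamma and eif-2Bepsilon, which are not shown, also hold neither. The runs shown therefore hold these sequences more often than the member windows do as a whole. Over all 26 member windows, 11 hold CAAACAC and 3 hold ACGCAG, on either strand.

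Subunits of eIF3, the largest initiation factor and the scaffold on which the others assemble, carried several of the strongest peaks. Of 11 genes named eif-3, 8 were bound, with a median rank of 191 among the 2183 thresholded peaks. Ranks were taken on the signal value that the authors' peak caller gave each entry, with 1 as the strongest, and the median over all bound genes was 930.5. Signal values are compared only within a list, because how the caller scaled them is not stated in these sources.

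The peak at eif-3.J, whose product is a loosely attached subunit, had a pooled signal of 736 (I, 13434419 to 13434670) and ranked 31 in the pooled list, 25 in replicate 1 and 39 in replicate 2. It is the most distant of the member peaks, with its summit at position -944 bp, inside the 3' end of slc-25A46, the upstream gene on the same strand. The peak at eif-3.I, which encodes a WD-repeat subunit, had a signal of 719 (I, 2485528 to 2485769), ranked 33 in the pooled list, 37 in replicate 1 and 30 in replicate 2, and lay at -211 bp. Thus the strongest sites at eIF3 genes were at similar places in both replicate orders.

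The RNA-binding subunit gene eif-3.B had a signal of 405 (II, 14794948 to 14795253) and ranks of 173 pooled, 170 in replicate 1 and 169 in replicate 2. At eif-3.G, for another RNA-binding subunit, the signal was 376 (II, 8442324 to 8442555), with ranks of 209, 247 and 155. The gene eif-3.H, for a subunit with an MPN domain, had a signal of 452 (I, 4444346 to 4444589) and ranks of 133, 120 and 165. These 3 peaks kept within the 250 strongest entries of each replicate. Weaker peaks were found at eif-3.C (signal 144, ranks 505 pooled, 518 and 490 in the replicates), eif-3.E (112, with 568, 655 and 522) and eif-3.D (52.0, with 1017, 940 and 1066).

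No thresholded or relaxed entry lay at the promoters of the other eIF3 subunit genes eif-3.F, eif-3.K and eif-3.L, in the pooled list or in either replicate. The relaxed lists hold 30000 entries each, peaks and background together, and 41.0% of all protein-coding genes had a pooled entry in their window. The nearest thresholded summit lay at -46191 bp for eif-3.F, -2652 bp for eif-3.K and 22784 bp for eif-3.L. In C. elegans, animals without eif-3.K or eif-3.L are viable, whereas eif-3.F belongs to the structural core. The subunits B, G and I form, with the A and C subunits, the part of eIF3 also found in budding yeast, and 3 of these 3 were bound. Of the subunits C, E, F, H, K and L, which belong to the larger ring of the animal complex, 3 of 6 were bound. Over all protein-coding genes the share was 11.8%. C belongs to both parts but was counted in the ring only, and the bound genes eif-3.D and eif-3.J were counted in neither. The groups are small, and the difference depends on this grouping and was not tested. The name rule takes in neither egl-45, which encodes the A subunit, nor cif-1, which encodes the M subunit, and both were looked up after the other values were seen. The gene egl-45 was bound by a weak peak (signal 23.6, rank 2023 pooled and 1699 in replicate 1) that overlapped no entry of replicate 2. Its summit lay at -525 bp from egl-45 but nearer to the divergent gene kcmf-1, at -260 bp. The gene cif-1 was not bound.

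The genes for the small scanning factors eIF1 and eIF1A, which keep the ribosome open until a start codon is found, were both bound. The peak at eif-1.A (IV, 4810466 to 4810658) had a signal of 235 and ranks of 389 pooled, 387 in replicate 1 and 399 in replicate 2. At eif-1 (II, 4993860 to 4994109) it was weaker, with a signal of 30.1 and ranks of 1648, 1850 and 1281, and its summit lay at -405 bp from eif-1 but at -13 bp from the divergent gene vps-24, which encodes an ESCRT-III protein.

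Among the genes for eIF2, which carries initiator tRNA, only the GTP-binding subunit gene eif-2gamma was bound. Its peak (I, 2312988 to 2313237) had a signal of 49.5 and ranks of 1063 pooled, 892 in replicate 1 and 1565 in replicate 2. The gene eif-2alpha, whose product is the target of the stress kinases, had only a pooled entry of rank 19098 in its window, with ranks of 26941 and 12779 in the replicates. It lies 132 bp behind phb-1 on the same strand, and phb-1 was itself bound. The nearest thresholded summit was at -1782 bp from eif-2alpha (rank 819), and the gene with the 5' end nearest to that summit was Y37E3.8. With a 2000 bp upstream window eif-2alpha counted as bound. The gene eif-2beta had a pooled entry of rank 3844 at -103 bp, below the thresholded list, an entry of rank 2602 in replicate 1 and none in replicate 2. The eIF2 subunits thus did not share a state.

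Of the 5 genes for eIF2B, the exchange factor for eIF2, 4 were bound, all by peaks of modest signal. The highest was at eif-2Bbeta (I, 11893750 to 11893999, signal 54.5), with ranks of 986 pooled, 1073 in replicate 1 and 853 in replicate 2. At eif-2Bgamma (II, 6967657 to 6967906, signal 42.2) the ranks were 1219, 1001 and 2471, so that in replicate 2 the peak fell below the 2183 strongest entries. This gene had a second thresholded summit in its window, at -939 bp and of rank 1230. Peaks at eif-2Balpha (III, 9542899 to 9543148, signal 34.5) and eif-2Bepsilon (II, 8661639 to 8661888, signal 33.8) had pooled ranks of 1444 and 1476. The fifth gene, eif-2Bdelta, had a pooled entry of rank 4119 at -18 bp and was not bound.

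The alternative factors eIF2A and eIF2D, which can bring tRNA to the ribosome without eIF2, differed in state. The peak at eif-2A (II, 10416603 to 10416778) had a signal of 128 and ranks of 535 pooled, 602 in replicate 1 and 501 in replicate 2. No entry of any list lay at eif-2D.

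The strongest peak at any of these genes lay at drr-2, whose product resembles the eIF4B and eIF4H helpers of mRNA unwinding. It ranked 7 in the pooled list with a signal of 1014 (III, 13643580 to 13643866), 9 in replicate 1 (signal 596) and 8 in replicate 2 (signal 409). The divergent neighbour set-16 starts 345 bp away, and the summit lay at -142 bp from drr-2 and -204 bp from set-16. The gene eif-4A3, for an RNA helicase of the exon junction complex, was the unbound member closest to the thresholded list, with a pooled rank of 2637 (signal 17.1) and ranks of 2555 and 2598 in the replicates.

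Cap-binding eIF4E is encoded by 5 genes in the worm, and they ranged from a strong peak to no pooled entry. The peak at ife-2, an isoform of somatic tissues, had a signal of 540 (X, 382752 to 383001) and ranks of 83 pooled, 90 in replicate 1 and 81 in replicate 2. The gene ife-3, for an isoform that binds the common monomethyl cap, was bound near the left end of chromosome V (8106 to 8355) by the weakest of the member peaks, with a signal of 25.7 and ranks of 1904, 1838 and 2983. Only 1 of the 2 bound isoform genes was therefore among the strongest sites.

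Of the unbound cap-binding genes, ife-4 had an entry at -357 bp with ranks of 3457 pooled, 7312 and 3102. The germline isoform gene ife-1, which overlaps the upstream gene dro-1 on the same strand, had a pooled entry of rank 29172 and none in replicate 2. At ife-5, another isoform of the germline, no pooled entry was present, although entries of rank 9651 and 21132 were found in the replicates. The gene ife-5 lies 64 bp behind Y57A10A.29 on the same strand. The sites of single tissues cannot be told apart in whole animals, and a link between tissue and these states was not tested.

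The gene eif-6, for a factor that keeps ribosomal subunits apart and helps to make the large subunit, was bound by a peak (I, 12968493 to 12968742) with a signal of 38.4 and ranks of 1333 pooled, 1269 in replicate 1 and 2007 in replicate 2. The summit lay about midway between eif-6 (-328 bp) and the divergent proteasome subunit gene pbs-2 (-338 bp).

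All 6 elongation factor genes were bound, and their peaks lay in a narrow range of rank, from 494 to 850 in the pooled list. The translocase gene eef-2 (I, 9163445 to 9163582) had a signal of 151 and ranks of 494 pooled, 465 in replicate 1 and 552 in replicate 2. The eEF1A gene eef-1A.1, also called eft-3 and known as the source of a promoter used to drive transgenes in most tissues, had a signal of 146 (III, 6972036 to 6972162) and ranks of 500, 467 and 598. The summit lay at -385 bp from eef-1A.1 but nearer to the divergent gene rfc-4, at -156 bp. The paralog of eef-1A.1, eef-1A.2, had a signal of 67.2 (X, 7823129 to 7823378) and ranks of 824, 795 and 914. In each replicate eef-1A.1 thus ranked ahead of eef-1A.2.

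The exchange factor genes for eEF1A were similar. The peak at eef-1B.1 (III, 7973261 to 7973510, signal 108) ranked 582 pooled, 546 in replicate 1 and 679 in replicate 2, and that at eef-1B.2 (IV, 15037061 to 15037310, signal 64.9) ranked 850, 806 and 946. At eef-1G (V, 10965567 to 10965816, signal 84.5), for the gamma subunit, the ranks were 692, 715 and 687. None of the elongation factor peaks was among the 200 strongest, which held 4 eIF3 peaks, drr-2 and ife-2.

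**Figure D2:**
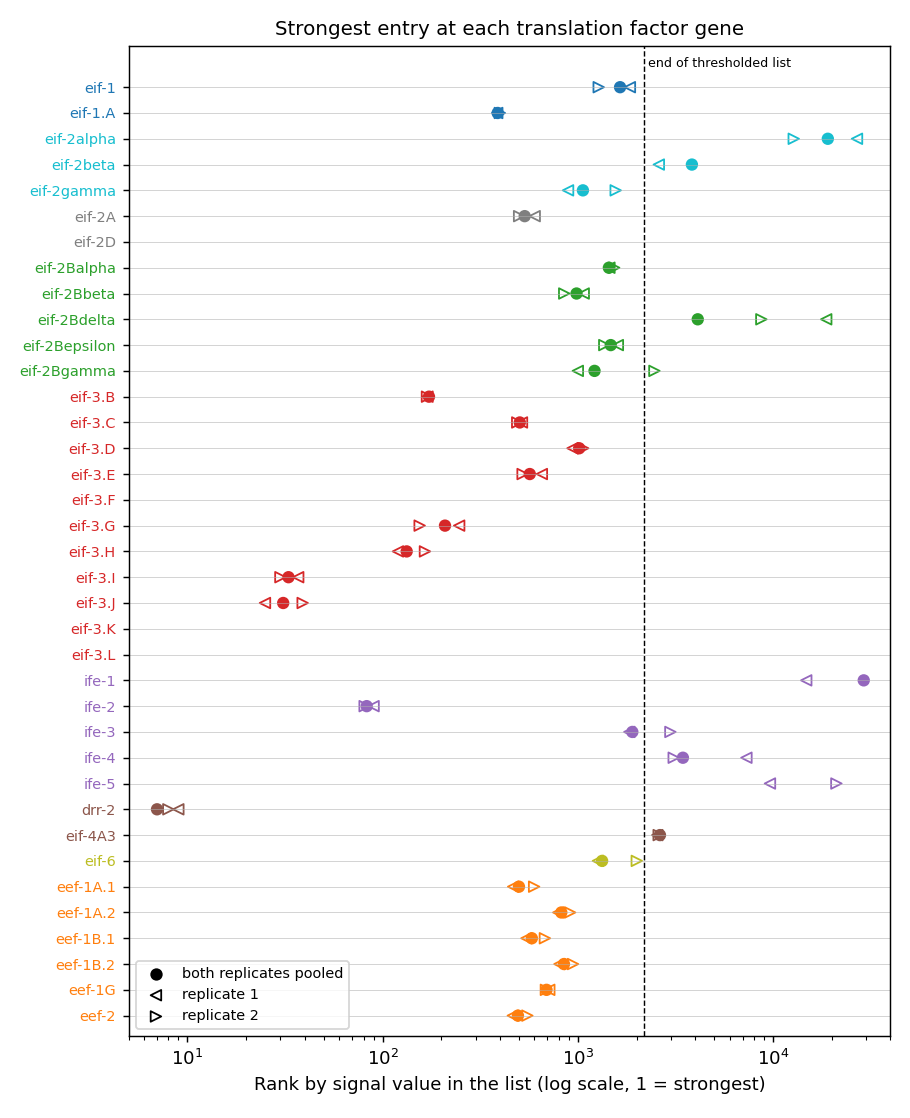
Rank of the strongest entry at each of the 37 genes (horizontal log axis, 1 is the strongest) in the pooled list (filled circles) and in replicates 1 and 2 (open triangles), coloured by group. Bound genes lie left of the dashed end of the thresholded list at 2183, drr-2 leads at 7, and the rows of eif-2D, eif-3.F, eif-3.K and eif-3.L are empty.

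The replicates ordered the member peaks in nearly the same way. All 26 peaks overlapped an entry in each replicate, and the Spearman correlation of the replicate ranks was 0.938 across these 26 peaks, given as a description because the peaks were selected with the use of both replicates. The same value over the 2159 thresholded peaks found in both was 0.823. The larger of the ranks exceeded the smaller by a median factor of 1.22 and at most 2.47, the latter at eif-2Bgamma, and for 20 of 26 peaks the factor was under 1.5. Over all thresholded peaks the median factor was 1.25, and it was under 1.5 for 1564 of 2159. In replicate 1 every one of the 26 peaks ranked within the first 2183 entries, and in replicate 2 all but eif-2Bgamma and ife-3 did (24 peaks). Neighbours in the order such as eef-2 and eef-1A.1, with pooled ranks of 494 and 500, stood no further apart than the replicates did.

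**Figure D3:**
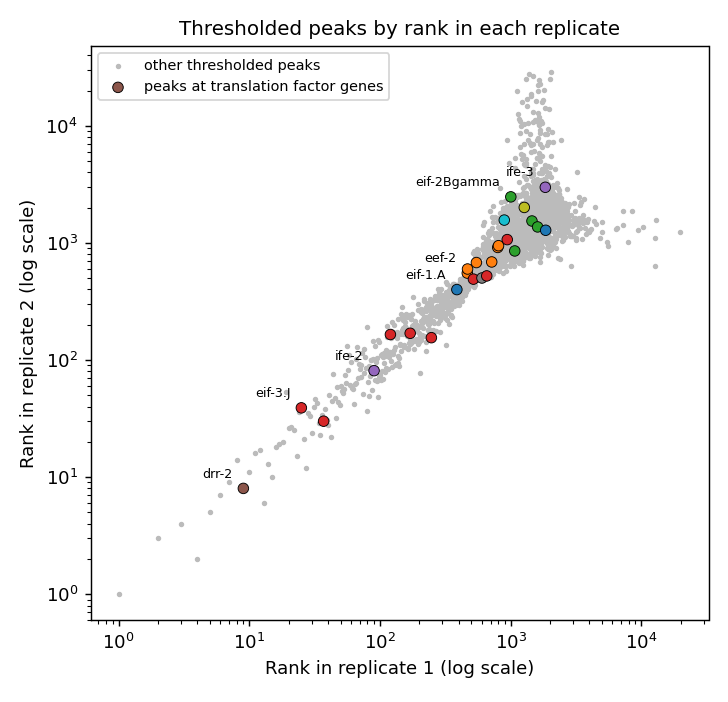
Rank of each thresholded peak in replicate 1 (horizontal) and replicate 2 (vertical), both on log axes, for the 2159 peaks found in both. Coloured points are the 26 peaks at translation factor genes, in the colours of their groups; drr-2 lies at 9 and 8, while eif-2Bgamma and ife-3 lie above the diagonal at replicate 2 ranks of 2471 and 2983.

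Summits lay upstream of the annotated 5' ends, as they did over all bound genes, and many were shared with a neighbour. The median position was -190 bp (quartiles -330.2 and -136 bp), beside -217 bp over all bound genes (-383 and -124 bp). The summit was upstream for 25 of the 26 genes, beside 2260 of all 2356 bound genes, and at eef-1B.1 it lay on the 5' end itself (position 0), inside the overlapping non-coding RNA gene F54H12.9. The summits of the 2 replicates lay a median of 8 bp apart and at most 58 bp, the latter at eif-2Balpha. Many worm mRNAs are trans-spliced, and their annotated start can then be the splice site rather than the place where transcription begins, so positions are relative to the annotation only.

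A total of 15 of the 26 peaks also lay in the window of another protein-coding gene (57.7%, beside 59.9% of all bound genes), and these sites cannot be given to a single gene. For 6 of them another gene had the nearer 5' end. The summit at eef-1A.1 was at -385 bp from that gene but at -156 bp from rfc-4, a clamp loader subunit gene, and that at eif-3.D was at -239 bp from it and -75 bp from R08D7.4. The same held for eif-1 and vps-24, eif-3.H and C41D11.3, eif-2Bbeta and Y47H9C.8, and eif-2Bepsilon and piga-1, a gene of GPI anchor synthesis. When a summit counted for a single gene, the one whose 5' end was closest, 20 of 37 factor genes were bound (54.1%), beside 8.11% of all genes under the same assignment.

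**Figure D4:**
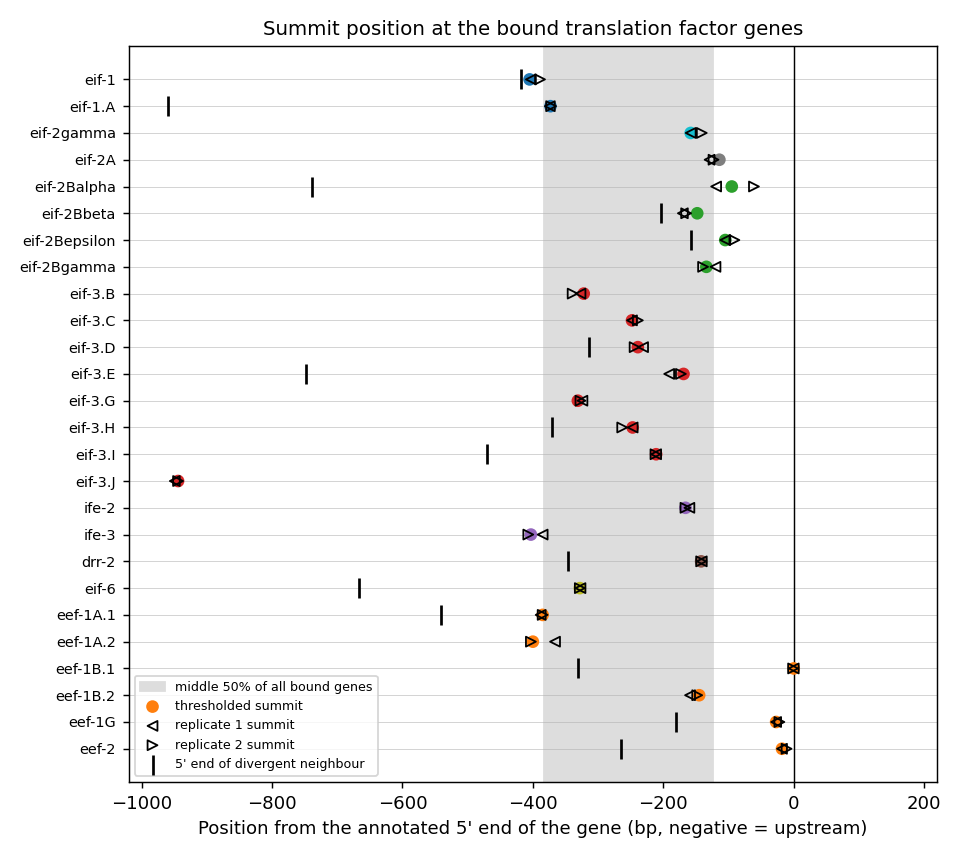
Position of the summit at the 26 bound genes (horizontal axis, bp from the annotated 5' end, negative upstream) in the thresholded list (filled circles) and in each replicate (open triangles). The grey band is the middle 50% of all bound genes and black bars are 5' ends of divergent neighbours; eif-3.J stands alone at -944 bp, and eef-2, eef-1G and eef-1B.1 lie within 30 bp of the gene start.

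The arrangement of the genes was compared because genes behind a close neighbour on the same strand are often transcribed in an operon. Of the 8 members less than 500 bp behind a protein-coding gene on the same strand, 4 were bound, against 22 of the other 29 (75.9%). Among all protein-coding genes, 351 of 4102 in this position were bound (8.56%), against 2005 of the other 15871. The unbound genes in this position were eif-2alpha, eif-3.F, ife-1 and ife-5, and the bound ones were eif-2gamma, eif-2Bgamma, eif-3.C and eef-1B.2. Operons themselves were not used here. The share of all protein-coding genes that were bound differed between chromosomes. On chromosome I, 9 of 12 members were bound, beside 18.6% of all its genes, on II 6 of 10 beside 415 of 3449 genes, and on III 5 of 6 beside 21.4%. On chromosome IV, 2 of 2 members were bound beside 10.7% of all genes, on V 2 of 4 beside 6.55%, and on X 2 of 3 beside 6.04%.

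The sequence CAAACAC was the 7-base sequence present at the most member summits. On either strand it was found in the 100 bp windows of 11 of 26 member peaks (42.3%), at eif-3.B, eif-3.G, eif-3.I, eif-3.J, ife-2, ife-3, eif-6, eef-1A.1, eef-1A.2, eef-1B.1 and eef-2. It was chosen for this count, so the count is a description. It was present at 369 of all 2183 thresholded summits (16.9%), at 28.7% of the 1091 strongest of these, and at 1.92% of the 27802 pooled entries that overlapped no thresholded peak. Of the 20 member peaks among those 1091, 9 held it. At eif-3.I it was centred on the summit and at eif-3.J 2 bp from it.

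The sequence ACGCAG, on either strand, was found at 3 of 26 member summits (11.5%), drr-2, eef-1G and eif-2Balpha, against 18.8% of all thresholded summits and 3.59% of the weaker entries. The comparison moved with the window: in 50 bp the shares were 11.5% of member summits and 11.6% of all thresholded summits, and in 200 bp 11.5% and 24.0%. No member window held both sequences, although their letters may overlap by up to 2 bases. The median share of G and C in the member windows was 46.5%, from 31% at eif-2Balpha to 60% at drr-2. It was 47% over all thresholded summits and 37% over the weaker entries. A match of letters does not show what is bound there.

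Other genes of translation and its control were bound in 19 of 34 cases (55.9%), beside 11.8% of all protein-coding genes. For 78.9% of the 19 the peak also lay in the window of another protein-coding gene, beside 59.9% of all bound genes. The strongest of these peaks were at gcn-1 (signal 799, rank 22), gcn-2 (570, rank 67) and tufm-1 (511, rank 99), a mitochondrial elongation factor gene. Both gcn genes belong to the pathway that senses uncharged tRNA and leads to phosphorylation of eIF2 alpha. The summit at gcn-2 lay at -231 bp from that gene but at -7 bp from the divergent gene Y81G3A.1. The kinase gene pek-1, which acts on eIF2 alpha during stress of the endoplasmic reticulum, was bound at rank 498 (signal 147). Of the eIF5A genes, iff-2 was bound (288, rank 326), while the germline gene iff-1 had an entry of rank 2372, just below the thresholded list. The subunit joining factor gene iffb-1 (290, rank 321), the eIF4E-binding protein gene ifet-1 (242, rank 379) and the helicase gene inf-1 (26.6, rank 1836) were bound, but ifg-1, for the scaffold eIF4G, was not (rank 4290). The peak at inf-1 overlapped no entry of replicate 2.

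Of the release factor genes, erfa-1 was bound (55.7, rank 969) and erfa-3 was not (rank 2666). The ribosome-associated ATPase genes abcf-1 (269, rank 347), abcf-2 (103, rank 612), abcf-3 (74.1, rank 770) and abce-1 (25.3, rank 1917) were all bound, but only at abcf-3 was no other gene nearer to the summit. The remaining bound genes were dph-3, larp-1, gfm-1, pab-1, ncbp-1 and tufm-2, with ranks from 226 to 1651. The TOR pathway genes let-363, daf-15 and rsks-1, the eEF2 kinase gene efk-1 and the modification enzyme genes dhps-1, dohh-1, dph-1 and dph-2 were not bound, nor were ncbp-2, pab-2, tct-1 and tsfm-1. Some of these calls depend on the window. A thresholded summit of rank 2119 lay at -1578 bp from rsks-1, the gene with the nearest 5' end. The genes let-363, dph-1 and tct-1 lie 340, 101 and 94 bp behind bound genes on the same strand. Their nearest thresholded summits were at -1461, -1706 and -1450 bp. Under the assignment to a single closest gene, 10 of the 34 were bound (29.4%), beside 8.11% of all genes. The calls at abce-1, abcf-1, abcf-2, dph-3, erfa-1, gcn-2, ifet-1, larp-1 and tufm-2 were lost.

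The closest groups of genes by function were those of the ribosome and of tRNA charging. Of 81 cytosolic ribosomal protein genes, 68 were bound (84.0%), and their peaks had a median rank of 684, while 13 of 31 aminoacyl-tRNA synthetase genes were bound (41.9%), at a median rank of 1056. For the translation factor genes the median rank was 575. Of the bound factor genes, 6 of 26 had a peak among the 200 strongest, against 1 of 68 bound ribosomal protein genes, 1 of 13 bound synthetase genes and 268 of all 2356 bound genes. These differences were not tested, and lists bound by shared peaks are not independent of their neighbours.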

How the data were processed

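Binding of eGFP-F16B12.6 in whole L1 larvae was profiled by ChIP-seq in 2 biological replicates, which form 1 group. The authors deposited peak lists on ce11 and ce10, and the ce10 lists were not used here. Per the deposited readme notes, the relaxed list of peaks and background of a replicate came from its own alignments and a control, the pooled list from both replicates, and the thresholded list from these by an irreproducible discovery rate analysis. The aligner, the caller and its threshold were not given in the sources used here. Ranks rest on the signal value, deposited by the authors in column 7, and summits on columns 2 and 10. Coordinates are 1-based.

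Genes came from Ensembl release 115 (WBcel235, the ce11 coordinates) and sequence from the RefSeq genome of the same assembly. Every member was named. Replicate entries had to overlap a peak by at least 1 bp. Of 39 symbols listed for other translation genes, 34 matched. No test was made, since there is 1 group. The depth is unknown. Members, lists and the sequence ACGCAG were chosen with earlier results of these data known. Gene assignment was tested on simulated data. Alternatives were other windows, assignments, thresholds and single replicates. Computation used Python 3.11.15, NumPy 2.4.6, SciPy 1.17.1 and pandas 2.3.3.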

Additional observations from a re-analysis of the deposited data

How the results depend on the processing

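The number of bound translation factor genes stayed between 20 and 32 of 37 over all alternatives run. It was 25 with a 500 bp upstream window (without eif-3.J; 9.94% of all genes), 27 with 2000 bp (with eif-2alpha; 14.5%), 20 with the nearest 5' end only (8.11%), 20 with the 1091 strongest thresholded peaks (6.83%) and 32 with any pooled relaxed entry (41.0%). Taking the 2183 strongest entries of a single replicate gave 25 (without ife-3; 11.3% of all genes) in replicate 2 and 26 (11.7%) in replicate 1. Over the 8 alternatives other than any pooled relaxed entry, 15 of the 26 genes stayed bound throughout. For the other translation genes the count of 19 of 34 became 15 with a 500 bp upstream window (9.94% of all genes) and 23 with 2000 bp (14.5%). It moved to 10 with the nearest 5' end only (8.11%) and to 30 with any pooled relaxed entry (41.0%). Taking each replicate alone, the median rank of 575 ranged from 628.5 to 638.5 and the median summit position of -190 bp from -201 to -192.5 bp. The share of member peaks with CAAACAC, an alternative chosen after seeing the data, was 34.6% in 50 bp windows (14.2% of all thresholded summits) and 38.5% at the summits of replicate 1. No paired analysis was possible because there is 1 group. Read depth is unknown, so absence of an entry does not show absence of binding.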
